A study of Mus musculus with 6 samples.

Results

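Signals of 10 genes used as markers of adipocytes were read in mouse hearts after tail suspension or sham housing. The genes were Adipoq, Retn, Plin1, Cidec, Cidea, Lep, Fabp4, Car3, Ucp1 and Pparg, chosen by name, and they were covered by 12 of the 55681 probes on the array that were not controls. Each heart came from a separate male C57BL/6 mouse, with 3 sham mice and 3 mice held in tail suspension for 28 days, a model of weightlessness. Suspension began at 10 weeks of age by the treatment notes, the age field reads 11 weeks for every mouse, and sham mice shared the housing and feed. RNA of cardiac muscle was hybridised to 1-colour Agilent arrays, and the labels do not say which part of the heart was taken or whether fat around it was removed. The unit is the processed signal, a spot's brightness after background correction, and a level is its log2 minus the log2 of the array's 75th percentile.

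Adipocytes store triglyceride in lipid droplets and release hormones into the blood. White adipocytes hold 1 large droplet, brown adipocytes burn lipid for heat, and fat lies beside heart muscle around the vessels and grooves of the organ. Several of the genes above are not restricted to fat. Fabp4, a fatty acid carrier, is also found in capillary endothelium and macrophages, and Pparg, the nuclear receptor that drives adipocyte formation, is also found at lower amounts in other cell types. In bulk tissue, fewer cells of a type and less RNA per cell cannot be told apart.

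The 4 probes below are shown because they read genes known mainly from fat: the hormones adiponectin (Adipoq) and resistin (Retn), the lipid droplet protein Cidec, and the uncoupling protein of brown fat, Ucp1. Each is 60 bases long, in the sense of the transcript, and at least 1 reading frame of it is free of stop codons. Capital letters are not used in these lines.
Adipoq: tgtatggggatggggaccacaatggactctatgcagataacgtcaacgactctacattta
Retn probe 1: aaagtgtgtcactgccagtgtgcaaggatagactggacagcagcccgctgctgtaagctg
Cidec probe 1: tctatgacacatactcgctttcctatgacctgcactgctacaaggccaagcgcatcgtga
Ucp1: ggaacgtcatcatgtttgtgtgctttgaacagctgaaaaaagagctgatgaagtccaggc
On the mm9 build of the array design, the Adipoq probe lies at chr16:23157576-23157635 on the plus strand and the Ucp1 probe at chr8:85821788-85821847 on the plus strand. Retn probe 1 lies at chr8:3657312-3657371 and Retn probe 2 at chr8:3659757-3659816, both on the plus strand. Cidec probe 1 lies at chr6:113378116-113378175 and Cidec probe 2 at chr6:113374630-113374689, both on the minus strand. The files give a gene and a position for each probe, without the exon or the part of the transcript.

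The 10 genes did not behave as 1 group on these arrays. Fabp4, Cidea and Pparg were well above background on all 6 arrays. Adipoq, Retn, Plin1, Cidec and Car3 were near background and well above it on 1 to 4 arrays, and Lep and Ucp1 were well above background on none. A gene was tested only if all 3 arrays of 1 group or the other read a probe of it well above background, so 3 of the 10 genes were tested. Pparg alone passed the adjusted threshold of 0.05 in limma, 1 of 3 tested genes, and over the 14199 tested genes of the array 21.7% passed, 10.5% as higher in tail-suspended mice.

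All 6 arrays came from 1 slide and 1 scan, which has 2 rows. The first row held the sham arrays and tail-suspension replicate 1, the second held the remaining pair. Between 50.9% and 53.4% of probes were well above background per array. The highest share belonged to tail-suspension replicate 1. The dimmest signal well above background was between 14.0 and 19.5 intensity units, depending on the array. All 10 cardiomyocyte markers were well above background on all 6 arrays, which matched the labelled tissue.

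Adiponectin is the most abundant hormone of fat cells. The Adipoq signal was 19.3, 12.8 and 6.10 intensity units in the sham mice and 72.5, 4.24 and 5.65 in tail-suspended mice. Sham replicate 1 and tail-suspension replicate 1 were well above background, the other 4 arrays were not, and the groups overlapped. The signal of tail-suspension replicate 1 was 3.56-fold the next highest after scaling. The log2 difference, tail-suspension minus sham, was -0.14, and it was -1.49 without tail-suspension replicate 1, with 2 arrays then left in that group and neither of them well above background.

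Resistin is a second hormone of mouse adipocytes, and both of its probes gave the same picture. Retn probe 1 read 8.21, 17.98 and 6.09 intensity units in sham mice and 121, 5.75 and 17.7 in tail-suspended mice. Retn probe 2 read 8.60, 14.4 and 4.70 in sham mice and 123, 9.21 and 13.4 in tail-suspended mice. On both probes tail-suspension replicate 1 stood above the 5 other arrays, and the groups overlapped. On probe 1 its level was 6.30-fold that of sham replicate 2, the other array well above background, and on probe 2 no other array was well above background. Without tail-suspension replicate 1 the log2 differences were -0.20 for probe 1 and 0.15 for probe 2.

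Plin1 and Cidec coat the lipid droplet of fat cells. The Plin1 signal was 14.2, 10.8 and 4.01 intensity units in sham mice and 21.7, 11.5 and 7.66 in tail-suspended mice. Cidec probe 1 read 3.39, 10.8 and 3.10 in sham mice and 14.8, 4.04 and 5.78 in tail-suspended mice. Cidec probe 2 read 7.77, 6.24 and 3.27 in sham mice and 33.5, 4.34 and 9.88 in tail-suspended mice. Tail-suspension replicate 1 was the highest of the 6 arrays on all 3 probes and the only array on which any of them was well above background. The groups overlapped on each probe.

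Car3 encodes carbonic anhydrase 3, an abundant cytosolic protein of fat and of slow skeletal muscle. Its signal was 52.3, 32.3 and 8.71 intensity units in sham mice and 181, 4.78 and 26.0 in tail-suspended mice. It was well above background on 2 arrays of each group, ranged widely in both, and the groups overlapped. The log2 difference was -0.01 over all arrays and -1.39 without tail-suspension replicate 1, whose level was 3.28-fold the next highest. Of the 10 skeletal muscle markers, 5 were tested and none passed, beside 21.7% called over all tested genes. The remaining 5 were well above background on no array.

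Leptin, the hormone that reports fat mass, was read from 10 spots per array. Its mean signal ran from 3.16 to 3.22 intensity units in sham mice and from 3.16 to 4.24 in tail-suspended mice. Of the 60 Lep spots, 1 was well above background, a spot of tail-suspension replicate 3 at 47.2 intensity units that carried an outlier flag and was left out. Ucp1, the uncoupling protein that makes heat in brown fat, gave between 2.84 and 4.05 intensity units. Neither gene stood out on tail-suspension replicate 1, where Ucp1 was at its lowest value.

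**Figure D1:**
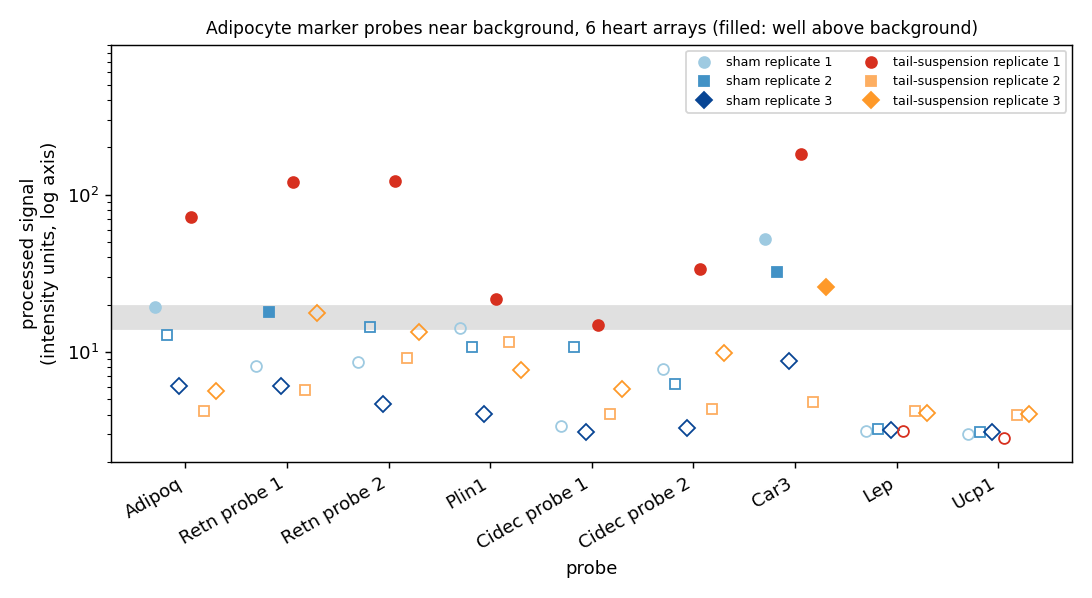
Processed signal in intensity units on a log axis (y) for 9 probes of 7 adipocyte marker genes (x), with sham arrays in blue and tail-suspension arrays in red and orange. Filled points are well above background, and the grey band spans the lowest such signal of the 6 arrays, 14.0 to 19.5. The red circle, tail-suspension replicate 1, is the highest point for the first 7 probes and lies with the others for Lep and Ucp1.

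The 7 probes of Adipoq, Retn, Plin1, Cidec and Car3 had the same array at the top. Tail-suspension replicate 1 ranked highest on 7 of 7 probes and was well above background on all 7. Retn probe 2, Plin1 and both Cidec probes were well above background on no other array, so they enter this count only through it. Its level was 1.45-fold the next highest for Plin1 and 1.29-fold for Cidec probe 1. Lep and Ucp1, also near background and not among the 7, had their lowest level on that array. Sham replicates 1 and 2 were well above background on 2 probes each, tail-suspension replicate 3 on 1, and sham replicate 3 and tail-suspension replicate 2 on none. The mean level over the 7 probes was -2.57 on tail-suspension replicate 1 and lay between -6.02 and -4.58 on the other arrays. The sham and tail-suspension groups overlapped on all 7 probes, and no difference between them was detectable for these genes.

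Fabp4, the fatty acid carrier, was bright on every array. Its signal was 49837, 47767 and 50678 intensity units in sham mice and 65072, 66244 and 68355 in tail-suspended mice. Every tail-suspension array was above every sham array, as was the case for 22.1% of all tested probes. The level was 7.30 ± 0.09 (SD, n = 3) in sham mice and 7.51 ± 0.06 (SD, n = 3) in tail-suspended mice. The log2 difference was 0.22 with a standard error of 0.09, a ratio of 1.16 (95% interval of the fit 1.00 to 1.35), and the limma adjusted p of 0.122 did not pass. With an intensity trend and robust variances the adjusted p was 0.0454, and with array weights it was 0.0466. With quantile normalisation the log2 difference was 0.11, with an adjusted p of 0.403.

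Fabp4 is also a gene of capillary endothelium, so the capillary markers stand beside it. Of 12 such markers, all tested, 2 rose and 5 fell, beside 10.5% higher and 11.2% lower over all tested genes, with a median log2 difference of -0.26 against -0.02 over all tested genes. Gpihbp1, which holds lipoprotein lipase on the capillary wall, rose by 0.68 on the log2 scale (limma adjusted p = 0.0497), and 1190002H23Rik, now named Rgcc, rose by 0.65 (adjusted p = 0.0278). The water channel Aqp1 fell by 0.66 (adjusted p = 0.0437), the VEGF receptor Kdr by 0.55 (adjusted p = 0.0159) and Emcn, endomucin, by 0.50 (adjusted p = 0.0406). A second Kdr probe, at -0.25, did not pass (adjusted p = 0.0739). Car4 did not pass on its brightest probe, at 0.02, whereas its second probe rose by 0.93 (adjusted p = 0.0164). The summed level of the list, as a mean over genes, ran from 3.27 to 3.47 in sham mice and from 3.12 to 3.30 in tail-suspended mice. Without tail-suspension replicate 1, none rose and 2 fell, and blocked on slide row none passed. The part of endothelial cells in the Fabp4 values was not tested.

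Cidea, a relative of Cidec that also sits on lipid droplets and is a marker of brown fat, was bright on every array. Its signal was 9736, 11959 and 10862 intensity units in sham mice and 13025, 15221 and 15718 in tail-suspended mice. Every tail-suspension array was above every sham array, as for 22.1% of all tested probes. The closest pair was sham replicate 2 and tail-suspension replicate 1, at levels of 5.23 and 5.26. The level was 5.10 ± 0.16 (SD, n = 3) in sham mice and 5.33 ± 0.07 (SD, n = 3) in tail-suspended mice. The log2 difference of 0.22 had a standard error of 0.11, and the ratio was 1.17 (95% interval 0.974 to 1.40). The limma adjusted p of 0.184 did not pass, and no alternative setting brought it under the threshold.

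Pparg, the nuclear receptor that drives adipocyte formation, was higher in tail-suspended mice. Its probe was printed 10 times on each array, and the mean signal was 988, 1029 and 1057 intensity units in sham mice and 1785, 1933 and 1729 in tail-suspended mice. All tail-suspension arrays lay above all sham arrays, as for 22.1% of all tested probes. Within an array the 10 spots varied by 1.70% to 3.85% (coefficient of variation). The level was 1.70 ± 0.10 (SD, n = 3) in sham mice and 2.32 ± 0.10 (SD, n = 3) in tail-suspended mice. The log2 difference was 0.61 with a standard error of 0.10, a 1.53-fold rise (95% interval 1.30 to 1.80), with a limma adjusted p of 0.0110. Without tail-suspension replicate 1 it was 0.58 (adjusted p = 0.0377). Blocked on slide row it was 0.68 with an adjusted p of 0.0875, and that value rests on tail-suspension replicate 1, the only suspended mouse in the row of the sham arrays.

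**Figure D2:**
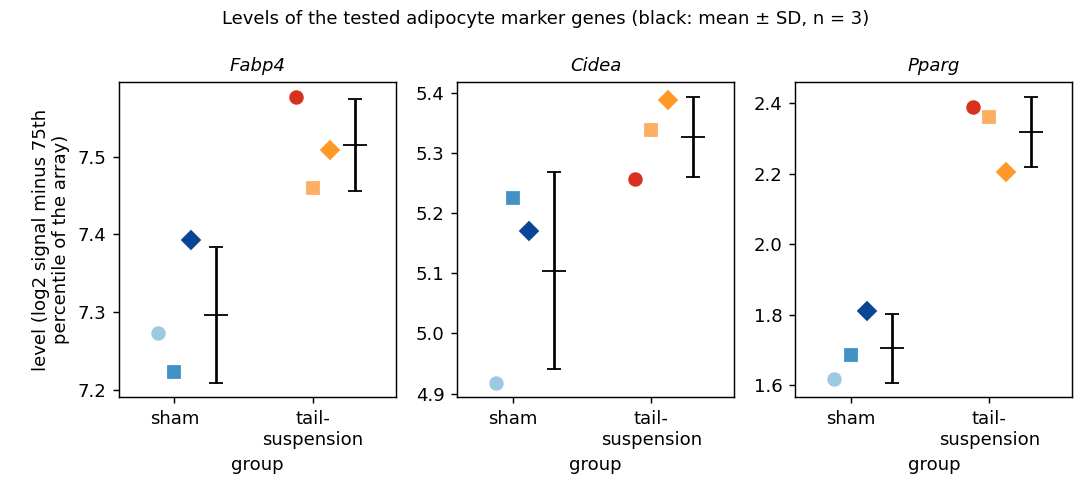
Level on the log2 scale relative to the 75th percentile of the array (y) for Fabp4, Cidea and Pparg in sham and tail-suspended mice (x), with circles, squares and diamonds for replicates 1, 2 and 3 and black marks for mean ± SD (n = 3). Tail-suspension points lie above sham points in each panel, as for 22.1% of all tested probes. The gap is widest for Pparg, 1.70 ± 0.10 against 2.32 ± 0.10. Each panel has its own axis range, and levels of different probes are not comparable.

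Pparg is transcribed from several starts, and the isoform typical of fat cells, PPARγ2, begins at a promoter downstream of that of PPARγ1. The array held 1 Pparg probe, at chr6:115440213-115440272 of mm9 on the plus strand, so the starts could not be told apart. The 250 bases before the first and the last of the 3 Pparg starts in RefSeq (GRCm38.p6, plus strand) are shown. They were picked because Pparg and the C/EBP factors Cebpb and Cebpd were higher in tail-suspended mice. The same window of Adipoq is shown beside them as a gene of fat with 1 start. Capitals mark matches, on either strand, to the C/EBP-like motif TTGCNNAA (reverse TTNNGCAA) or to CCAAT (reverse ATTGG).
Pparg first start, chr6:115360894-115361143: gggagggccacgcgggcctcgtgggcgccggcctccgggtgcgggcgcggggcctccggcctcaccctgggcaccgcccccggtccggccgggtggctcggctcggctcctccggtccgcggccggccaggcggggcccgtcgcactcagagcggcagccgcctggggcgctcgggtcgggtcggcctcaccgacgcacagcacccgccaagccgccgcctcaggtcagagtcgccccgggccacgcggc
Pparg last start, chr6:115421816-115422065: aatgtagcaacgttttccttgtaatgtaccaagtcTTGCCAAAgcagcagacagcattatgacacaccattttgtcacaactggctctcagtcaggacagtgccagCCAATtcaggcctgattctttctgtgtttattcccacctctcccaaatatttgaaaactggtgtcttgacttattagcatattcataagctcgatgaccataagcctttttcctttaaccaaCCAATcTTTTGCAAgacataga
Adipoq, chr16:23146286-23146535: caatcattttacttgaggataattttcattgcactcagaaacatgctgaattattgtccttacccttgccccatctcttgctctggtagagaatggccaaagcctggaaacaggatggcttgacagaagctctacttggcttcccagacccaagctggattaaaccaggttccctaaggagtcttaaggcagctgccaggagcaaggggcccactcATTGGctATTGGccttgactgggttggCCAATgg
The window before the first Pparg start held neither motif and was 82.4% G and C. The window before the last start, 60922 bases further on, held 2 C/EBP-like matches and 2 CCAAT matches and was 40.8% G and C. The Adipoq window held 3 CCAAT matches and no C/EBP-like match. The C/EBP-like motif was in 9.56% of the 32851 windows of this length in RefSeq and CCAAT in 33.8%. RefSeq held 10 windows for 7 of the 10 genes. A C/EBP-like match was in 4 of these windows, from Cidec, Lep, Plin1 and Pparg. CCAAT was in 3 of them, from Adipoq and Pparg. These counts were not tested. A match is a stretch of letters and not a measured binding site.

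Several transcription factors act with Pparg in making fat cells. Of 12 adipogenic factors on the array, 11 were tested, 4 rose and 1 fell, beside 10.5% higher and 11.2% lower over all tested genes, and the median log2 difference was 0.27 against -0.02 over all tested genes. Cebpd, induced early in adipocyte formation, rose by 1.85 on the log2 scale (limma adjusted p = 0.00702), a 3.60-fold rise. Cebpb, its early partner, rose by 1.29 (adjusted p = 0.0185). Cebpa, of the same family, did not pass, at 0.26 (adjusted p = 0.299), and its groups overlapped. Nr1h3, the oxysterol receptor LXRα, rose by 1.11 (adjusted p = 0.00739), and its second probe rose by 1.24. Klf15, a glucocorticoid-induced factor that is also abundant in heart muscle, rose by 0.95 (adjusted p = 0.0284).

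Zfp423, which commits cells to the fat lineage, fell by 1.01 on its brightest probe (limma adjusted p = 0.00447), whereas its 2 other tested probes did not pass, at -0.15 and -0.38. The bright factors Klf4 and Ebf1 did not pass, at log2 differences of 0.27 and 0.14. Each of the factors that rose is also used by cells other than adipocytes. Without tail-suspension replicate 1, 3 factors rose and 1 fell. Blocked on slide row 1 passed, lower in tail-suspended mice.

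Of 15 other markers of white fat on the array, 11 were tested, 1 rose and 2 fell, with a median log2 difference of -0.11. That share, 3 of 11, was near the 21.7% called over all tested genes, and blocked on slide row none passed. Tusc5, a protein of glucose transporter traffic in fat, rose by 0.84 (limma adjusted p = 0.0159). The beta-3 adrenergic receptor Adrb3 fell by 0.75 (adjusted p = 0.00453). Mest, an imprinted gene tied to fat cell size, fell by 2.05 (adjusted p = 0.0103), and its second probe fell by 1.73. The bright markers Sncg and Mrap did not pass, at log2 differences of 0.43 and -0.11.

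Cfd encodes adipsin, a protease released by adipocytes. Its signal was 79.0, 27.5 and 3.65 intensity units in sham mice and 691, 69.1 and 107 in tail-suspended mice. Tail-suspension replicate 1 was again highest and sham replicate 3 lowest, and the groups overlapped. Sham replicate 3 was not well above background, so the difference has no exact size, and the limma adjusted p of 0.149 did not pass. Cyp2e1, a cytochrome P450 of liver and fat, read 30.6, 26.3 and 14.5 in sham mice and 133, 41.1 and 63.5 in tail-suspended mice. Its tail-suspension arrays all lay above its sham arrays, as for 22.1% of all tested probes, and sham replicate 3 was not well above background. The difference did not pass (limma adjusted p = 0.0805), though it did with array weights (0.0349) and without tail-suspension replicate 2 (0.0390). Cfd and Cyp2e1 were named after their values were seen.

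Genes of the lipid droplet and of lipolysis, which heart muscle also uses, were well above background on every array, 13 of 13. In tail-suspended mice 2 rose and 1 fell, with a median log2 difference of -0.07. That share, 3 of 13, was near the 21.7% called over all tested genes, and blocked on slide row none passed. Lipe, hormone-sensitive lipase, rose by 1.06 (limma adjusted p = 0.0165), and Plin4, a droplet coat protein, rose by 0.94 (adjusted p = 0.00313). Abhd5, the activator of the main triglyceride lipase, fell by 0.67 on its brightest probe (adjusted p = 0.0142), and its 2 other probes did not pass. Lpl, lipoprotein lipase, and Plin5, a droplet protein of oxidative tissue, did not pass, at log2 differences of 0.21 and -0.44.

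Fatty acid and triglyceride synthesis showed 1 rise and 2 falls among 15 tested genes of 16, with a median log2 difference of -0.12. That share, 3 of 15, was near the 21.7% called over all tested genes. Acaca, acetyl-CoA carboxylase 1, rose by 0.78 (limma adjusted p = 0.0110), and a second probe rose by 0.81. Me1, malic enzyme, fell by 0.67 (adjusted p = 0.0170), and Lpin1, a phosphatidate phosphatase, fell by 0.65 (adjusted p = 0.0227). Both falls were lost when blocked on slide row and without sham replicate 1 or 2 or tail-suspension replicate 1 or 3, with adjusted p from 0.0507 to 0.200. Each was lost in 7 of 18 alternatives, among them no filter, with a limma adjusted p of 0.0597 for Me1 and 0.0750 for Lpin1. Dgat2, which makes triglyceride, and Slc2a4, the insulin-regulated glucose transporter, did not pass, at -0.41 and 0.04. Gpam did not pass on its brightest probe, at -0.85 (adjusted p = 0.0733), whereas its second probe fell by 0.82 (adjusted p = 0.0240).

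Of 13 brown fat markers, 10 were tested, 4 fell and none rose, beside 11.2% lower over all tested genes, with a median log2 difference of -0.24. Otop1, counted among these falls, was well above background on only 1 of 3 tail-suspension arrays and was tested only through the sham arrays. Its fall has no exact size, and with no filter its limma adjusted p was 0.0849. The amino acid transporter Slc36a2 fell by 1.07 (adjusted p = 0.00543), Cox7a1, a subunit of cytochrome oxidase in heart and brown fat, by 0.57 (adjusted p = 0.0152), and the glycerol kinase Gyk by 0.34 (adjusted p = 0.0416). Cox8b and Kcnk3 did not pass, at -0.15 and 0.20. Ppargc1a did not pass on its brightest probe, at 0.39 (adjusted p = 0.0895), whereas its second probe rose by 0.54 (adjusted p = 0.0300). Without tail-suspension replicate 1, 2 fell. Blocked on slide row none passed. The 4 adipokine receptors were all tested and none passed, beside 21.7% called over all tested genes. Adipor2 was at 0.13 and Cdh13, which binds adiponectin, at -0.33.

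**Figure D3:**
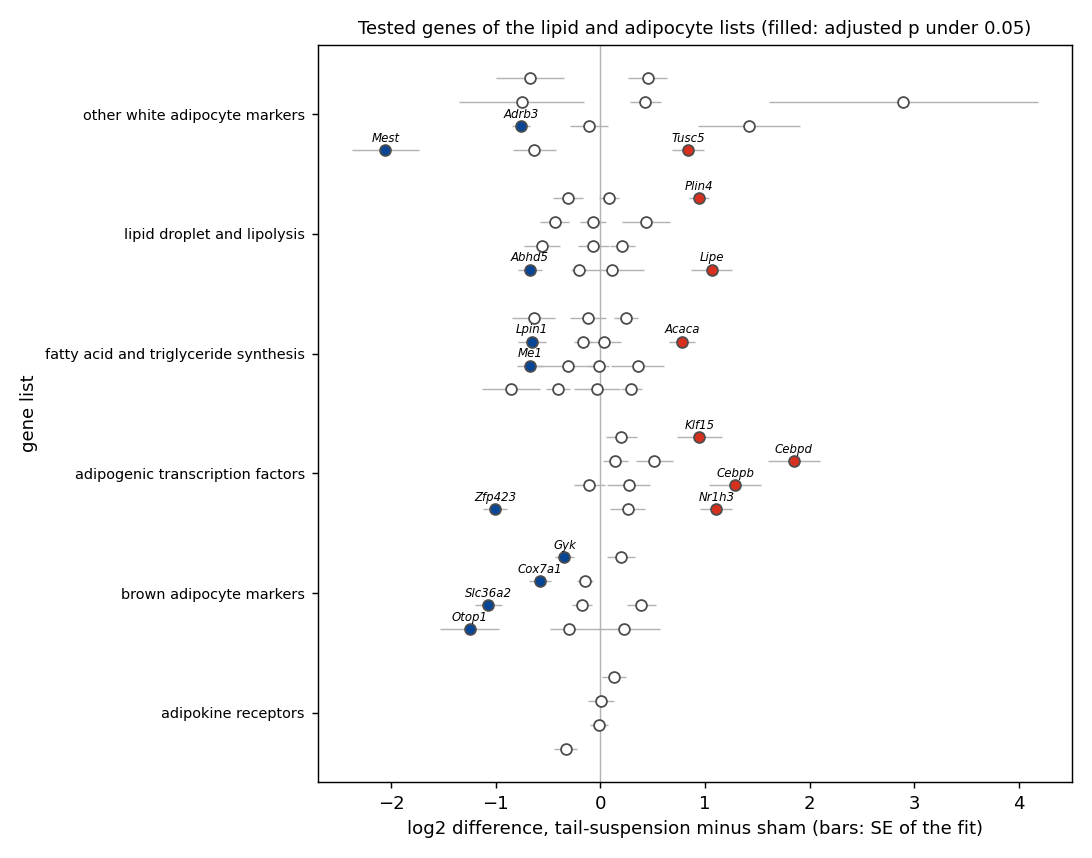
Log2 difference, tail-suspension minus sham (x), of each tested gene in 6 lists (y), with bars for the standard error of the fit. Filled points passed the adjusted threshold of 0.05, red for higher and blue for lower, and carry the gene name, and Otop1 is drawn at its measured value although 2 of its tail-suspension arrays were near background. Among filled points the largest rise is that of Cebpd, 1.85, and all 4 filled brown fat markers lie to the left of 0.

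Lists for other cell types were set beside the members by array. The mean level of the 10 adipocyte marker genes ran from -2.79 to -2.15 in sham mice and was -1.04, -2.81 and -2.31 in tail-suspension replicates 1, 2 and 3. Of the 10 genes, 7 had their highest level on tail-suspension replicate 1. In the other lists that array held the highest level of at most 4 genes, for fatty acid and triglyceride synthesis, 4 of 16. The mean level of the other white fat markers, from -2.61 to -2.27 in sham mice and from -2.45 to -2.21 in tail-suspended mice, overlapped between the groups.

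Red cell markers were lowest on tail-suspension replicate 1, with a mean level of 0.09, and ran from 0.72 to 1.90 in sham mice. None of their 6 tested genes passed, beside 21.7% called over all tested genes. Their median log2 difference was -1.27, with Hba-a1 at -1.50 and Hbb-b1 at -1.54. Beside the same 21.7%, preadipocyte and fibroblast markers did not pass in any of 9 tested genes, with Dcn at 0.34 and Col1a2 at -0.63. Of 8 tested macrophage markers, 1 was called higher and 1 lower, near the 21.7% called over all tested genes. Cd163 was at least 3.39-fold higher, a bound because all 3 sham arrays read it near background. It was tested only through the tail-suspension arrays, and with no filter its limma adjusted p was 0.0734. No macrophage marker rose without tail-suspension replicate 1, and blocked on slide row none passed in either direction. Aif1 fell by 0.94 (adjusted p = 0.0107), with the bright markers Csf1r and C1qa at 0.13 and 0.75, not passed. In the cardiomyocyte list Actc1 fell by 0.33 (adjusted p = 0.0364), a call lost without tail-suspension replicate 1 and with either block. Myl2 and Myl3, at -0.13 and -0.11, did not pass. Myh6 did not pass on its brightest probe, at -0.09, whereas its second probe fell by 1.47 (adjusted p = 0.00957). The part of these cell types in the values of the adipocyte genes was not tested.

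**Figure D4:**
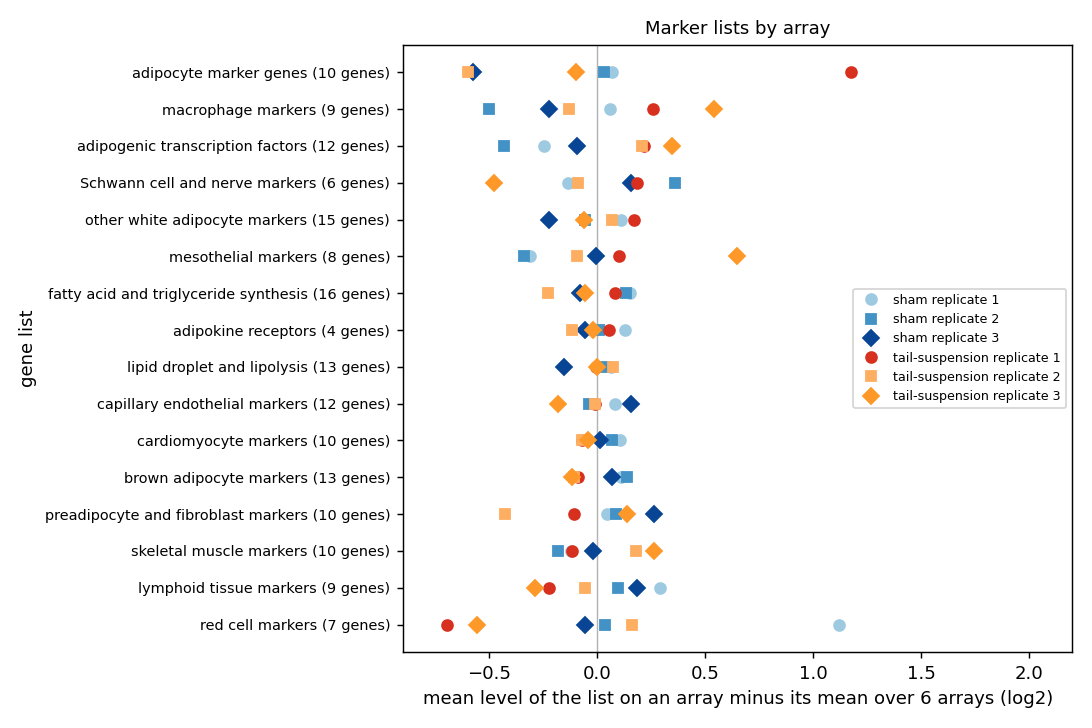
Mean level of each marker list on an array minus the mean of the 6 arrays, on the log2 scale (x), for 16 lists (y), with sham arrays in blue and tail-suspension arrays in red and orange. For the adipocyte marker genes the red circle, tail-suspension replicate 1, lies more than 1 log2 unit above the mean, apart from the 5 other arrays. In the red cell list the same array is the lowest.

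Levels of 13595 other genes that were well above background on all 6 arrays were set against Adipoq. Among the closest by Pearson correlation over the 6 arrays, without a test, were Mmp17, Brp16, Tmem192, Zfp958, Bmx, Fam135a, Phb and Fam174b, with r from 0.93 to 0.97. None of these belonged to a list above, and none passed between the groups. Mmp17 had levels from -0.93 to -0.41, and Adipoq from -6.47 to -2.23. By deviations from the group means, those among the closest were Cxcl14, Mapk6, Fam174b, Coq7, Tmem192, Timm44, Larp4, Rcsd1 and Larp4b, with r from 0.988 to 0.999. Of these, Mapk6 and Larp4b passed between the groups, at log2 differences of -0.42 and -0.44 (limma adjusted p = 0.0192 and 0.0379). Adipoq itself was well above background only on sham replicate 1 and tail-suspension replicate 1, so its other values are near background. All points share the same 6 arrays, and tail-suspension replicate 1 sets the high end of Adipoq in each of these correlations.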

How the data were processed

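RNA of cardiac muscle from 6 mice was measured on 1-colour Agilent arrays. For each array the deposited scanner file lists mean, background and processed intensity by spot, as Agilent Feature Extraction 10.7.1.1 (per the labels) wrote them. A further deposited table holds log2 values of these arrays, whose columns correlated at 0.999 or above with the log2 processed intensity and whose sorted columns differed by at most 0.000857, as after quantile normalization.

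The log2 processed intensity minus the log2 of each array's 75th percentile was computed in R 4.3.3. Controls were dropped, as were outlier spots (146 to 212 per array), and spots of 1 probe were averaged. No spot was saturated. A probe was well above background on an array where the scanner marked 50% or more of its spots so. Tested were the 28030 of 55681 probes that were so on all 3 arrays of 1 group or of both, by lmFit and eBayes of limma 3.58.1 without covariates, with Benjamini-Hochberg adjustment at 0.05. The brightest tested probe stood for its gene. Tail suspension gave 3023 higher and 2683 lower probes. An exact permutation test of 3 against 3 cannot go below 0.1. In simulated data with 28002 probes, 68% of 100 probes changed by 1 on the log2 scale and 96% of 100 changed by 2 were called. The number of arrays limits the precision.

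Gene names are those of the array design, counted as genes where RefSeq (GRCm38.p6) holds them as symbol or synonym. Probe coordinates are mm9, promoter coordinates GRCm38.p6. The 10 genes and the marker lists were chosen with earlier results of these data known, and no list was tested. Named are the 10 genes, in each list up to 5 members past the threshold and the 2 brightest that did not pass, and the 10 genes closest to Adipoq by each of the 2 correlations. A few genes that this rule names are not reported here. In the endothelial list, Tie1 and Egfl7, which also fell, are beyond that limit, and the nerve, lymphoid and mesothelial lists are given in observations. Alternatives covered background correction, scaling, filters, outlier spots, variance models, the methods' t-test, blocks and leaving out each array.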

Additional observations from a re-analysis of the deposited data

How the results depend on the processing

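Pparg passed in all alternatives except the block on slide row, with log2 differences of 0.53 to 0.68. Its highest adjusted p without 1 array was 0.0492, without sham replicate 2. The number of the 10 genes past the threshold was 1 in the other settings, 2 with intensity trend and robust eBayes and with array weights (Fabp4 added), and 0 when blocked on slide row. The differences of Fabp4 and Cidea stayed positive in all 18 alternatives, from 0.11 to 0.28 and from 0.13 to 0.29.

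Of the list genes that passed in the adipocyte and endothelial lists, none reversed. Acaca and Zfp423 passed in all 18 alternatives, and Cebpd, Nr1h3, Plin4, Slc36a2 and Adrb3 in 17, whereas Gyk lost its call in 12, Gpihbp1, Tie1 and Egfl7 in 11, Aqp1 in 9, and Klf15, Otop1 and Emcn in 8. The gap of Cfd stayed above 0 in 17 alternatives, none of which passed.

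Counts of probes higher and lower, 3023 and 2683, were 1041 and 790 with no filter, 1532 and 1248 with the methods' t-test, 320 and 177 when blocked on slide row, and 4465 and 4355 with array weights. Leaving out 1 array gave 1007 to 2885 higher probes and 748 to 2701 lower. The lowest counts were without sham replicate 2. The cause was not tested.

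Replicate numbers are shared between the groups without a stated pairing, and same-numbered arrays did not deviate together (correlations -0.02, -0.02 and 0.05). The fit with a replicate block called 1714 probes higher and 1403 lower, and Pparg passed at 0.61 (adjusted p = 0.0440).

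Probes near background give only a bound on a level, so for Adipoq, Retn, Plin1, Cidec, Car3, Lep and Ucp1 a difference between the groups was not detectable with 3 arrays each.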

Other observations

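Of 6 lymphoid markers tested, 1 rose and 2 fell, beside 10.5% higher and 11.2% lower over all tested genes. Ptprc rose by 0.47 (limma adjusted p = 0.0425) and Cd79a fell by 0.86 (adjusted p = 0.0196). The T cell genes Cd4 and Cd3e did not pass, at -0.27 and -0.17. Without tail-suspension replicate 1 no lymphoid marker rose. Of 5 Schwann cell and nerve markers tested, 1 rose and 1 fell, beside the same 10.5% and 11.2% over all tested genes. Prx rose by 0.47 (adjusted p = 0.0316) and Ngfr fell by 1.55 (adjusted p = 0.0316), with Sox10 at -0.44, not passed. Blocked on slide row, no lymphoid or nerve marker passed. Of 8 mesothelial markers, which would mark the outer lining of the heart, 2 were tested. Neither passed, beside 21.7% called over all tested genes, with Krt18 at 0.72 and Wt1 at 0.35. The skeletal muscle genes Ckm and Tnni2 did not pass, at 0.03 and 0.25.

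The number of probes well above background on 1 array alone was 202, 176 and 492 on sham replicates 1, 2 and 3 and 633, 410 and 413 on tail-suspension replicates 1, 2 and 3. Among genes of the marker lists, those on tail-suspension replicate 1 alone were Retn by probe 2, Cidec by both probes, Plin1, Klf5, and 1 probe each of Cyp2e1 and Krt8.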
